A study of Mus musculus with 48 samples.

Results

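The 6 genes described here, Drd2, Adora2a, Penk, Rgs9, Ppp1r1b and Pde10a, are markers of the striatum, and their RNA was followed mouse by mouse in libraries made from cerebral cortex. They were taken by symbol from both deposited expression tables, where all 6 were found among 27086 genes of the B6 mice and 18943 genes of the APOE-TR mice. The study asked how the cortical transcriptome responds to nPM, inhaled nanoscale particles collected beside an urban freeway, and whether sex and APOE allele alter that response. RNA was measured in 48 mice, as 12 groups of 4.

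The B6 mice (C57BL/6J, 16 mice aged 4 months in the labels) breathed re-aerosolized nPM or filtered air for 8 weeks, and carried their own mouse Apoe. The APOE-TR mice (32 mice aged 6 months) carried human APOE3 or human APOE4 in place of mouse Apoe, and breathed nPM or filtered air for 15 weeks. Both exposures ran 5 h/day on 3 days/week. The mice were perfused with phosphate-buffered saline and the whole cerebral cortex was frozen, with no further account of how it was cut from the tissue beneath. By the paper, the exposures also used different batches of nPM. The B6 and APOE-TR mice thus differ in strain, Apoe genotype, age, length of exposure, nPM batch and table at once. A difference between them cannot be told apart from any of these, and levels were compared only within a table. Values of a group follow the order of the mouse numbers: in B6, female controls 40, 41, 42 and 43, female nPM mice 50, 51, 52 and 53, male controls 0, 2, 3 and 6, and male nPM mice 10, 11, 12 and 16. In APOE3 they are female controls 52, 61, 63 and F6, female nPM mice 55, 59, 67 and 70, male controls 51, 55, 63 and 73, and male nPM mice 53, 56, 58 and 76. In APOE4 they are female controls 7, 21, 26 and 38, female nPM mice 8, 23, 27 and 39, male controls 3, 21, 32 and 91, and male nPM mice 23, 33, 65 and 93. Control F6 is known from its column only by genotype, sex and exposure, since its number matches no sample label.

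The striatum lies directly beneath the cerebral cortex, separated from it by a thin sheet of white matter, and most of its neurons are medium spiny neurons. These inhibitory cells receive dopamine and come in 2 kinds, of the direct pathway with dopamine D1 receptors and of the indirect pathway with dopamine D2 receptors. Drd2 encodes the D2 receptor and Adora2a an adenosine receptor, and both sit on indirect pathway neurons, where Penk encodes the precursor of the enkephalin opioid peptides. Rgs9 encodes a protein that shortens G protein signals, Ppp1r1b encodes DARPP-32, an inhibitor of protein phosphatase 1 controlled by dopamine, and Pde10a encodes an enzyme that breaks down cyclic nucleotides. These last 3 are shared by both kinds of spiny neuron. Some cortical neurons also express part of these genes, DARPP-32 in deep layers and enkephalin in interneurons among them, so the cortex is not empty of them.

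The members lie on 5 chromosomes of mm10, in the coordinates of the B6 table. Drd2 is at chr9:49340627-49408178 on the plus strand, Adora2a at chr10:75316877-75334785 on the plus strand, and Penk at chr4:4133531-4138820 on the minus strand. Rgs9 (chr11:109225355-109298130, minus strand) and Ppp1r1b (chr11:98348404-98357797, plus strand) share a chromosome, and Pde10a is at chr17:8525372-8986649 on the plus strand. The tables give 1 value per gene, so no isoform was distinguished. RefSeq promoter windows were matched for 3 of the 6 members. The 250 bases before the RefSeq start are printed for Drd2 and Rgs9 (GRCm38.p6, 5′ to 3′), with GC boxes (GGGCGG or its reverse complement CCGCCC) in capitals.
Drd2, chr9:49340153-49340402, plus strand: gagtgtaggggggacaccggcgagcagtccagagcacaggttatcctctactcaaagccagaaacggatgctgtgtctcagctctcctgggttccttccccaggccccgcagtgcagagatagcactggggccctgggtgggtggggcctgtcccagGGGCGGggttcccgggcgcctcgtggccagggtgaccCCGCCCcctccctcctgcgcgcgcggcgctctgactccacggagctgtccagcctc
Rgs9, chr11:109298182-109298431, minus strand: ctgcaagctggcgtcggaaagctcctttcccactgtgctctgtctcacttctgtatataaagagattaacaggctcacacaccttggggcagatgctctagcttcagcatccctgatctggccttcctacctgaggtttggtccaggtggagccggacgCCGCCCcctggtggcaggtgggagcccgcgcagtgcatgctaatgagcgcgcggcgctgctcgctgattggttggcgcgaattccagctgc
The Drd2 window holds 2 GC boxes and the Rgs9 window 1, and 32.7% of the 32851 promoter windows of the same length hold at least 1. The cAMP response element TGACGTCA, found in 1.55% of windows, and its core TGACG or CGTCA, found in 17.8%, are not in these windows. Both are rich in G and C, with 68.8% and 59.6% against a median of 52.4%. Pde10a has 2 RefSeq windows, chr17:8801495-8801744 and chr17:8849735-8849984, which lie inside the span of the gene in the tables and not before its start, and are not printed. The first holds 1 GC box at 72.8% G and C and the second none at a lower share of G and C, and neither holds the other motifs.

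Values are CPM, the reads of a gene scaled to a common library size. Estimated depth was 2.05 to 24.4 M reads in B6 mice and 17.8 to 31.3 M reads in APOE-TR mice, and the members' smallest value rested on 17 reads. A few libraries stood apart before any group was compared. In B6 male controls 0 and 2, all 8 markers of cortical excitatory neurons were below each of the other 14 B6 mice: Slc17a7, the vesicular glutamate transporter of cortical excitatory neurons, had 49.97 and 126.7 CPM against 257 to 646. The same 2 libraries were above the other 14 in all 4 cholinergic interneuron markers, in 3 of 7 direct pathway genes and in 2 of 8 thalamic genes. The defining markers of the labelled tissue were thus low in both. APOE3 female controls 61 and F6 stood apart in another way: their libraries held less of long transcripts, with slopes of level on transcript length of -0.54 and -0.40 log2 units per doubling against -0.22 to 0.16 in the other APOE-TR mice. Tests and correlations that include these 4 libraries are also given without them below where that changes a call or a direction. Xist and Ddx3y matched the labelled sex of every mouse, and mouse Apoe was at 8.81 to 30.7 CPM in APOE-TR mice against 164 to 503 in B6 mice.

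Per kilobase of longest transcript, the median level in B6 mice was 167 CPM per kb for Penk, 63.1 for Ppp1r1b, 19.3 for Drd2, 13.2 for Adora2a, 12.4 for Pde10a and 10.1 for Rgs9. In APOE-TR mice it was 118 CPM per kb for Penk, 111 for Ppp1r1b, 27.7 for Pde10a, 21.3 for Rgs9, 14.2 for Adora2a and 6.05 for Drd2. Penk and Ppp1r1b led in both tables, and Drd2 moved from the third place to the last, where strain, Apoe genotype, age, exposure, nPM batch and table cannot be told apart.

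All 6 members were read in all 48 mice, at levels that spread more widely than those of the median gene. In B6 mice Drd2 ranged over 111-fold and Adora2a over 235-fold between the lowest and the highest mouse, where the median of 13916 genes was 3.97-fold. In APOE-TR mice Drd2 ranged over 22.8-fold and Ppp1r1b over 3.88-fold, where the median of 15972 genes was 2.59-fold. In such bulk tissue, fewer cells of a type and less RNA per cell cannot be told apart.

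**Figure D1:**
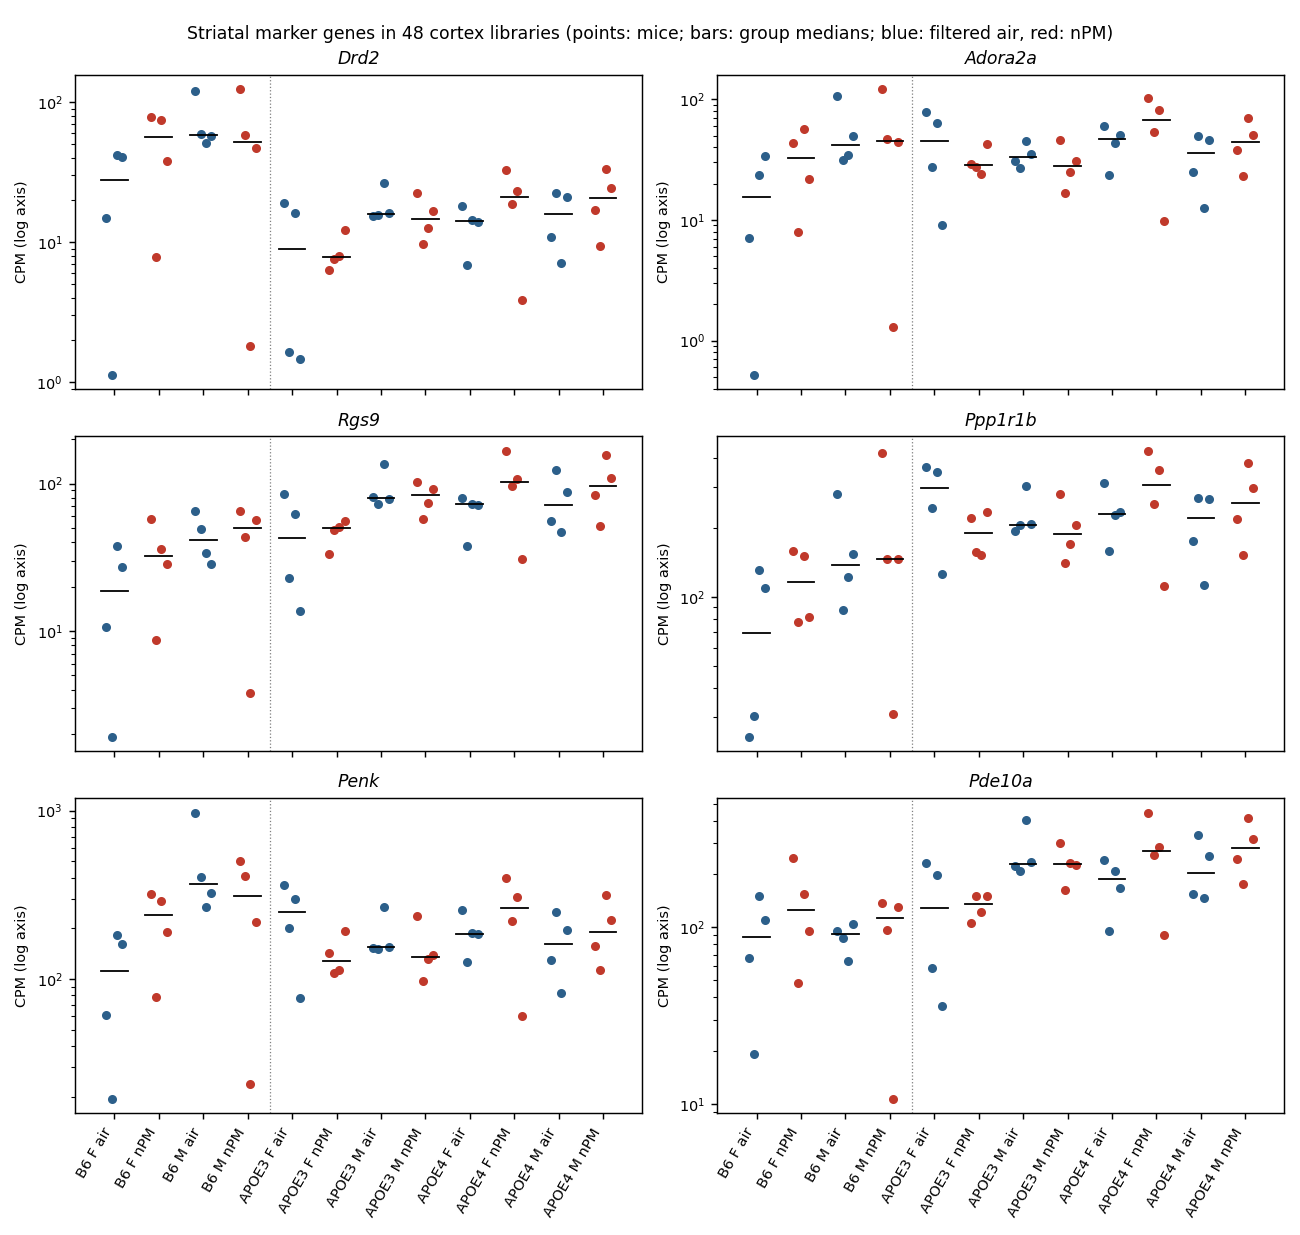
Level of each striatal marker in CPM (log axis) in every mouse of the 12 groups, filtered air in blue and nPM in red, with the group median as a bar and the dotted line between the B6 and APOE-TR tables. Single mice far below their group recur in the 6 panels, among them B6 female control 41 with 1.12 CPM of Drd2 and B6 male nPM mouse 12 with 1.81 CPM.

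Drd2, the D2 receptor gene, had 14.9, 1.12, 41.96 and 40.5 CPM in B6 female controls and 78.7, 7.83, 74.8 and 38.2 CPM in B6 female nPM mice. Control 41 was far below the other controls, nPM mouse 51 was far below the other nPM mice, and the groups overlapped. Drd2 in B6 males was 119.5, 59.5, 51.5 and 57.8 CPM in controls and 125, 57.97, 1.81 and 46.7 CPM in nPM mice, where mouse 12 was lowest and control 0 and mouse 10 were about level at the top. In APOE3 the females had 18.9, 1.63, 16.3 and 1.47 CPM in controls and 6.34, 7.55, 8.02 and 12.3 CPM with nPM, and controls 61 and F6 were the lowest of the 32 APOE-TR mice. APOE3 males kept within a narrower span, with 15.3, 15.6, 26.3 and 16.2 CPM of Drd2 in controls and 22.6, 9.72, 12.6 and 16.7 CPM with nPM. In APOE4 females Drd2 was 18.3, 6.89, 14.3 and 13.9 CPM in controls and 32.7, 18.9, 23.03 and 3.86 CPM with nPM, and in APOE4 males 10.98, 22.4, 7.06 and 20.9 and 16.9, 9.34, 33.4 and 24.2 CPM. The nPM mice enclosed the whole control range in both sexes of APOE4 but for the lowest control male.

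Adora2a, the adenosine receptor that works against D2 signals in the same neurons, had the widest range of the 6 in B6 mice. In B6 females it was 7.13, 0.519, 23.7 and 34.1 CPM in controls and 43.04, 7.90, 57.1 and 21.9 CPM with nPM. In B6 males it was 107, 31.3, 34.4 and 49.9 and 122, 46.8, 1.29 and 44.1 CPM. The mice at the bottom were again control 41 and nPM mouse 12, on 17 reads in the first. In APOE3 Adora2a was 79.02, 27.7, 63.2 and 9.15 CPM in female controls, 29.2, 27.3, 24.3 and 42.7 CPM in female nPM mice, 30.5, 27.1, 45.3 and 35.4 CPM in male controls and 45.7, 16.6, 25.1 and 30.7 CPM in male nPM mice. In APOE4 the 4 groups had 59.9, 23.5, 43.1 and 50.4 CPM (female controls), 103, 53.9, 81.6 and 9.79 CPM (female nPM), 25.1, 49.7, 12.6 and 46.3 CPM (male controls) and 38.1, 23.2, 69.8 and 50.7 CPM (male nPM). APOE4 female nPM mice hold both the highest value of the APOE-TR mice, in mouse 8, and the second lowest, in mouse 39.

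Penk, the enkephalin precursor of the indirect pathway, was 60.8, 19.4, 183 and 161 CPM in B6 female controls and 322, 78.6, 291 and 191 CPM in B6 female nPM mice. Its highest value among B6 mice was in male control 0, among 973, 406, 267 and 324 CPM in male controls and 499.5, 406, 23.9 and 218 CPM in male nPM mice. That is a library in which cortical excitatory markers were low. For Penk in APOE3 females the controls had 362, 202, 299 and 76.8 CPM and the nPM mice 143, 108, 113 and 194 CPM, and in APOE3 males 153, 150.3, 266 and 156 and 236, 97.5, 132 and 139 CPM. Penk in APOE4 was 256, 126, 187 and 186 CPM in female controls, 397, 222, 307 and 60.02 CPM in female nPM mice, 129, 251, 82.7 and 195 CPM in male controls and 157, 112, 317 and 224 CPM in male nPM mice. Control 61, with nearly the lowest Drd2, was above the APOE-TR median of 171 CPM for Penk.

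Rgs9, which ends G protein signals downstream of dopamine receptors, was 10.6, 1.91, 37.8 and 26.99 CPM in B6 female controls and 57.1, 8.73, 36.2 and 28.3 CPM in B6 female nPM mice. In the males of B6 it was 64.8, 48.98, 33.7 and 28.3 CPM in controls and 64.999, 43.5, 3.79 and 56.5 CPM with nPM. The 4 lowest B6 mice were the same as for Drd2. Rgs9 in APOE3 was 85.1, 22.8, 62.2 and 13.6 CPM in female controls, 33.5, 48.6, 51.1 and 55.4 CPM in female nPM mice, 81.005, 73.2, 135 and 78.8 CPM in male controls and 103, 57.2, 74.05 and 92.4 CPM in male nPM mice. In APOE3 with nPM every male was above every female, the only such gap between sexes within an exposure for this gene. Rgs9 in APOE4 was 79.4, 37.9, 72.9 and 71.6 CPM in female controls, 167, 96.1, 108 and 30.7 CPM in female nPM mice, 55.7, 124, 47.3 and 88.3 CPM in male controls and 83.7, 51.9, 156 and 109 CPM in male nPM mice.

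Ppp1r1b, the DARPP-32 gene, had the narrowest range of the 6 in APOE-TR mice. In B6 it was 24.6, 30.4, 131 and 109 CPM in female controls, 157, 77.8, 150.4 and 82.1 CPM in female nPM mice, 279, 87.6, 122 and 153 CPM in male controls and 421, 146, 30.9 and 147 CPM in male nPM mice. Control 40 was even lower here than control 41, while its Drd2 was far higher (14.9 against 1.12 CPM). Ppp1r1b in APOE3 was 368, 244, 350.3 and 126 CPM in female controls, 220.3, 157, 152 and 233 CPM in female nPM mice, 193, 205, 305 and 207 CPM in male controls and 279.9, 139.9, 169 and 205 CPM in male nPM mice. Ppp1r1b in APOE4 was 314, 158, 226 and 234 CPM in female controls, 432, 254, 356 and 111 CPM in female nPM mice, 174, 269.8, 112 and 267 CPM in male controls and 217, 152, 380.1 and 296 CPM in male nPM mice.

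Pde10a, the striatal phosphodiesterase, was 67.1, 19.1, 151 and 109.6 CPM in B6 female controls, 246, 48.5, 154 and 95.8 CPM in B6 female nPM mice, 95.7, 87.2, 64.02 and 105 CPM in B6 male controls and 138, 96.2, 10.7 and 129.8 CPM in B6 male nPM mice. Unlike Penk and Drd2, Pde10a in B6 male control 0 was not high for its group. Pde10a in APOE3 was 232, 59.1, 199 and 35.8 CPM in female controls, 106, 149.8, 122 and 149.6 CPM in female nPM mice, 221, 209, 406 and 234 CPM in male controls and 302, 163, 231 and 226 CPM in male nPM mice. Pde10a in APOE4 was 240.3, 95.3, 207 and 168 CPM in female controls, 446, 258, 286 and 90.4 CPM in female nPM mice, 154, 333, 146 and 253 CPM in male controls and 242, 177, 416 and 318 CPM in male nPM mice. Its transcript is the longest of the 6, at 7769 bases, and its lowest values in APOE-TR mice were in controls 61 and F6.

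To set mice side by side, the 6 members were averaged in each mouse as the striatal level, the mean of log2(rescaled CPM + 0.5) after subtracting each member's median in its table. In B6 mice the level went from -3.66 in female control 41 to 1.24 in male nPM mouse 10, and 4 mice lay below the others: controls 41 (-3.66) and 40 (-1.73), male nPM mouse 12 (-3.37) and female nPM mouse 51 (-1.61). The next was female nPM mouse 53 at -0.39. In APOE-TR mice it went from -2.07 in APOE3 female control F6 to 1.18 in APOE4 female nPM mouse 8, with APOE4 female nPM mouse 39 at -1.45 and control 61 at -1.20. Members mostly moved as one: all 6 were above their table's median in 4 B6 and 11 APOE-TR mice and none was in 5 and 10, leaving 7 and 11 mice with some above and some not. Of the variance of the level 79.0% lay within groups in B6 and 83.0% in APOE-TR, where groups of this size with no difference between them give 80.0% and 77.4% on average. The SD within groups was 1.45 log2 units in B6 mice and 0.74 in APOE-TR mice.

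**Figure D2:**
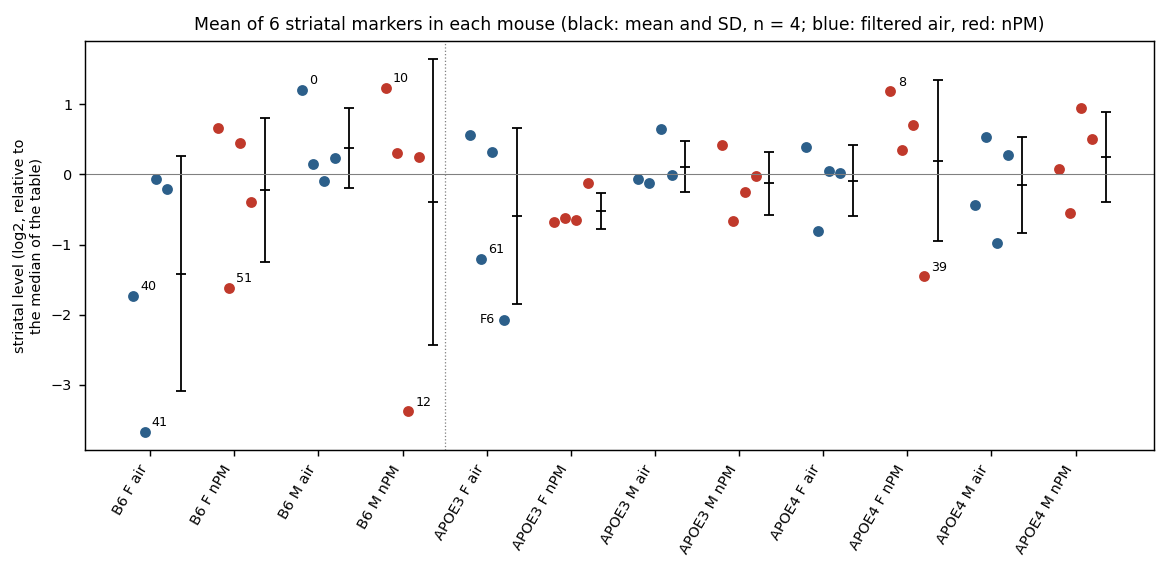
Striatal level (log2, mean of the 6 markers relative to their medians in the table) of every mouse by group, filtered air in blue and nPM in red, with mean and SD (n = 4) in black and the farthest mice numbered. Control and nPM mice overlap in each pair of groups, and the lowest mice, B6 female control 41 (-3.66) and B6 male nPM mouse 12 (-3.37), are 1 control and 1 nPM mouse.

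Between pairs of members, log2 CPM rose and fell together across mice. In the 16 APOE-TR males all 15 pairs had a Pearson r of 0.91 to 0.99 and a Spearman rho of 0.92 to 0.99, with unadjusted permutation p of at most 1e-05 for r, the smallest the 100000 resamples can give, and 3e-05 for rho. Without the 2 mice farthest from the median of the first gene of a pair, r was 0.87 to 0.98. In the 16 APOE-TR females r was 0.73 to 0.99 (largest permutation p = 0.0012) and rho 0.79 to 0.99 (largest permutation p = 0.00061), and without the 2 farthest mice r was 0.62 to 0.98. Without controls 61 and F6, the females had r of 0.82 to 0.99. Over all 32 mice the pair of Ppp1r1b and Pde10a had an r of 0.67, against 0.76 in females and 0.94 in males, and as deviations from the group mean all 15 pairs had r of at least 0.87. In B6 the 4 low mice, with striatal levels of -3.66 to -1.61, lay below the other 12, so no r between members was pooled over the 16. Leaving them out narrows the range of levels, and the part of this in the r values was not tested. Among the other 12 B6 mice, r ran from -0.12 for Penk with Pde10a to 0.93 for Adora2a with Ppp1r1b, and rho from -0.21 to 0.87. Of these 15 pairs 10 had a permutation p under 0.05 for r and 9 for rho, and without the 2 farthest mice the median r fell from 0.66 to 0.44. Pde10a had r of -0.12 to 0.33 to the other 5 in these mice, but 0.40 to 0.66 as deviations from the group mean, where the 15 pairs ran from 0.40 to 0.93.

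The ratio of Adora2a to Drd2 in a mouse, which does not depend on how the library is scaled, separated the sexes in APOE-TR mice. It was 1.71 to 2.49 in the 16 males and 2.53 to 16.9 in the 16 females, or 2.53 to 4.61 without controls 61 and F6. The other ratios to Drd2 overlapped between these males and females. They were 11.4 to 16.2 and 13.2 to 149 for Ppp1r1b, 8.34 to 12.04 and 11.76 to 123 for Penk, and 4.22 to 6.70 and 3.82 to 14.0 for Rgs9. In B6 mice the ratio of Adora2a to Drd2 overlapped too, at 0.53 to 0.98 in 8 males and 0.46 to 1.01 in 8 females. The slopes of level on transcript length separated the sexes of APOE-TR mice too, at 0.058 to 0.16 log2 units per doubling in males and -0.54 to 0.028 in females. The part of these slopes in the ratio of Adora2a to Drd2 was not tested, and sex and library cannot be told apart there. Ratios to Drd2 were also high in the mice with least Drd2: Ppp1r1b was 26.98 times Drd2 in B6 female control 41, 17.1 times in male nPM mouse 12 and 9.94 times in female nPM mouse 51, against 1.47 to 3.38 in the other B6 mice.

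**Figure D3:**
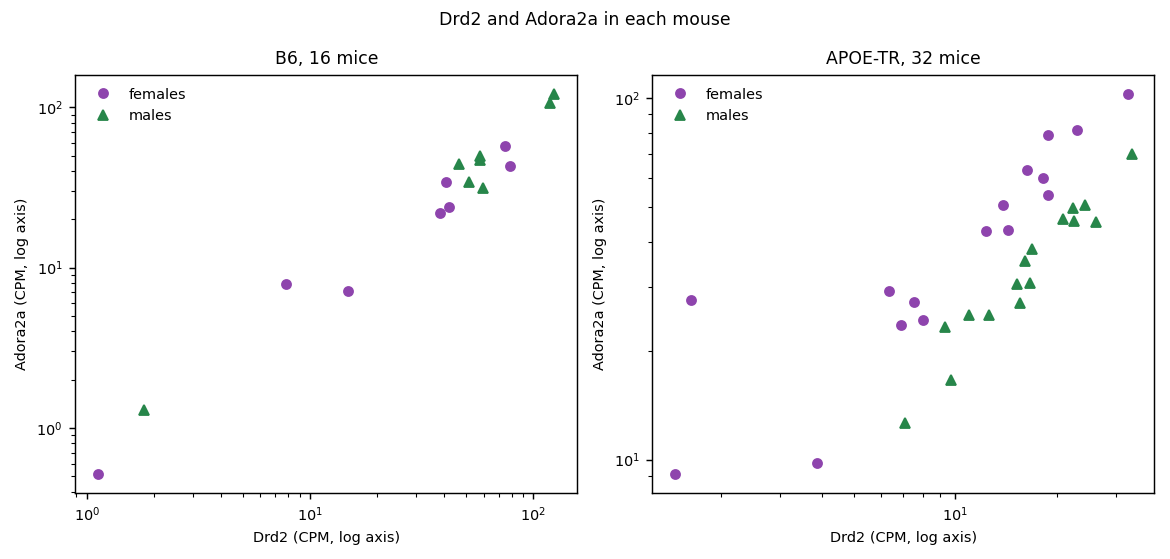
Adora2a against Drd2 in each mouse (CPM, log axes), B6 mice left and APOE-TR mice right, females as circles and males as triangles. Points rise along a line in both tables, and in APOE-TR mice each female lies above the line of the males (Adora2a 2.53 to 16.9 times Drd2, against 1.71 to 2.49).

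Other genes of the striatum followed the 6 members. They are described in the 12 B6 mice without the 4 low ones and in the APOE-TR mice. Over 14 further genes of both kinds of medium spiny neuron, the mean level of a mouse correlated with its striatal level at r of 0.92 in 12 B6 mice and 0.99 in 32 APOE-TR mice. For 7 direct pathway genes, among them the D1 receptor gene Drd1 and the dynorphin precursor Pdyn, r was 0.64 and 0.93. Cholinergic interneurons are another cell type of the striatum, and their 4 markers, Chat, Slc5a7, Slc18a3 and Lhx8, had r of 0.55 and 0.94. With the 4 low mice these B6 values were 0.97, 0.90 and 0.83, and without controls 61 and F6 the APOE-TR values were 0.99, 0.96 and 0.95.

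Cortical excitatory neurons had r of -0.42 and a Spearman rho of -0.20 in the 12 B6 mice, and -0.04 and -0.08 without male controls 0 and 2 as well. In APOE-TR mice their r was 0.10 and their rho -0.28, and without controls 61 and F6 both were negative, at -0.56 and -0.53. The other lists had r in the 12 B6 and the 32 APOE-TR mice of -0.15 and -0.53 for cortical interneurons, 0.31 and 0.05 for thalamus, -0.30 and -0.22 for dentate gyrus, 0.13 and 0.02 for olfactory bulb, -0.09 and -0.16 for choroid plexus, and 0.28 and -0.29 for myelin. Without controls 0, 2, 61 and F6, in 10 and 30 mice, these were 0.04 and -0.36, 0.07 and -0.02, 0.17 and -0.29, 0.20 and 0.32, -0.03 and 0.06, and -0.11 and -0.01. Points share libraries and so depth and composition. The length slope of a library had r of -0.66 (rho -0.46) with the striatal level in the 12 B6 mice and 0.50 (rho 0.27) in APOE-TR mice, or 0.15 (rho 0.12) without controls 61 and F6, and its part in the list values was not tested.

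**Figure D4:**
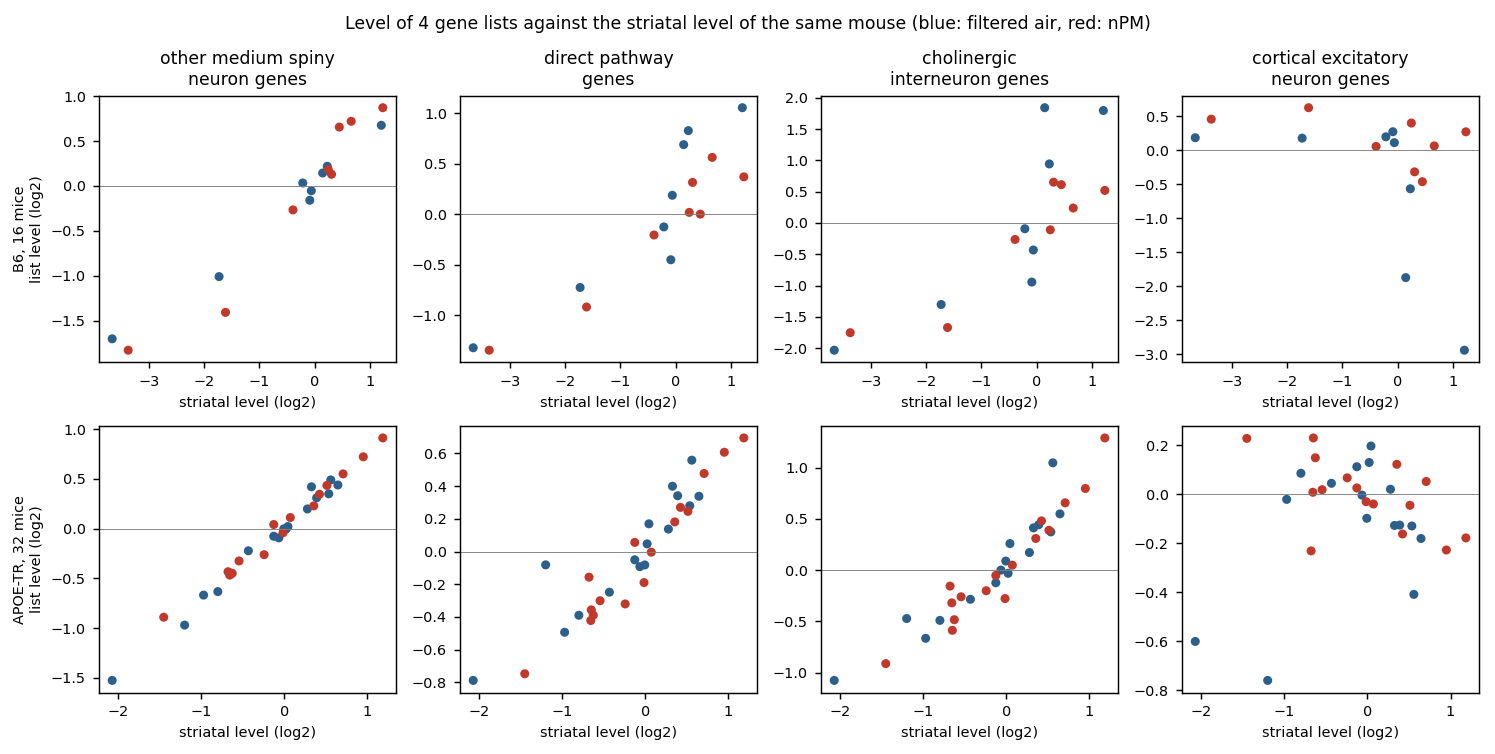
Mean level of 4 gene lists (log2, relative to the table's medians) against the striatal level of the same mouse, B6 above and APOE-TR below, filtered air in blue and nPM in red. The first 3 lists rise with the striatal level (r of 0.55 to 0.92 in 12 B6 mice without the 4 low ones, 0.93 to 0.99 in APOE-TR), and the cortical excitatory list does not rise with it in B6 (r of -0.42 in the 12 mice), with B6 male controls 0 and 2 at its bottom.

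The genes most like the members were ranked over 11091 genes by the smaller of the 2 correlations with the striatal level, over 32 APOE-TR and over 16 B6 mice. Among the leading ones were Gng7 (0.96), a G protein subunit of striatal receptors, Syndig1l (0.96), Drd1 (0.93), Cd4 (0.92), Tacr1 (0.91), the substance P receptor, Pde1b (0.91), Adcy5 (0.89), the main adenylyl cyclase of the striatum, Rasgrp2 (0.89) and Doc2b (0.85). Of the 11091 genes 19 reached 0.8 in both tables, or 0.171%. Cd4, Tacr1 and Doc2b were on none of the lists. Members themselves ranged from 0.89 to 0.95, with their own share in the level included. This order leans on the 4 low B6 mice and on controls 61 and F6. Without them, in 12 B6 and 30 APOE-TR mice, 7 genes reached 0.8, or 0.0631%, and the smaller r was 0.85 for Gng7, 0.84 for Adcy5, 0.83 for Pde1b, 0.79 for Syndig1l, 0.70 for Rasgrp2, 0.67 for Cd4, 0.66 for Tacr1, 0.64 for Doc2b and 0.58 for Drd1, and 0.35 for Pde10a among the members. Without B6 male controls 0 and 2 as well, it was 0.82 for Cd4 and 0.65 for Drd1.

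In single genes, Chat, which makes acetylcholine, was 0.202 to 8.33 CPM in 14 B6 mice and 9.08 and 15.4 CPM in male controls 0 and 2, and Isl1 of direct pathway neurons was 13.8 and 9.47 CPM there against 0.029 to 8.62, the lowest being a mouse without reads. Prkcd, a thalamic marker here, had 31.8 and 31.1 CPM against 1.03 to 12.2. The striatal levels of these 2 controls were 1.21 and 0.15, so only control 0 was among the high mice. In the 4 B6 mice with low striatal levels the mean level of the cortical excitatory list was 0.18 (control 40), 0.18 (control 41), 0.62 (nPM mouse 51) and 0.45 (nPM mouse 12), above the table's median in each. This was not particular to them. The other B6 mice ran from -2.94 (male control 0) to 0.40 (male nPM mouse 16). Male nPM mouse 10, with the highest striatal level, was at 0.27.

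No member met the threshold for an nPM response, an unadjusted limma p under 0.005, in any of the 6 comparisons of 8 mice, and in each of them nPM and control mice overlapped for all 6 members. In B6 females 0 of 6 members were called, where 1.20% of 14811 genes were. All 6 were higher with nPM, by 0.78 (Pde10a, SE 0.56) to 1.56 (Adora2a, SE 0.89) on the log2 scale, Drd2 by 1.39 (SE 0.91) and Penk by 1.35 (SE 0.60). The smallest exact permutation p of the 6 was 0.171, for Penk, where 0.0286 is the least that 4 against 4 can give. The members' median of 1.23 stood beside -0.027 over all genes, and controls 40 and 41, with levels of -1.73 and -3.66, were both in the control group. The interval of Penk ran from 0.063 to 2.63 (limma, adjusted p = 0.47), and those of the other 5 included 0. Without control 41 the change of Penk was 0.69 (SE 0.45), with an interval that included 0, of Drd2 0.33, of Adora2a 0.52 and of Pde10a 0.17. Control 41 was the lowest of its group in the striatal level, so these smaller changes cannot be told apart from leaving it out. The interval of Penk also included 0 without control 40 or nPM mouse 50, 52 or 53, with changes of 1.10 to 1.37. In the same mice 11 of 12 tested genes of both kinds of spiny neuron were higher and 2 of 8 cortical excitatory genes were. Those spiny neuron genes follow the members from mouse to mouse and are not separate cases.

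In B6 males 0 of 6 members were called, against 0.240% of 15430 genes, and the differences went the other way. All 6 had lower means with nPM, with log2 changes of -0.20 (Ppp1r1b, SE 0.59) to -1.27 (Penk, SE 0.74), with an exact permutation p of at least 0.371. The low nPM mouse 12 lay in this comparison opposite the high control 0. Without mouse 12, 5 of the 6 changes turned positive, from 0.014 (Drd2) to 0.49 (Ppp1r1b), and Penk was at -0.30. That mouse stands out by the members' own values, so these directions cannot be told apart from the choice to leave it out. Without the 2 controls low in cortical markers all 6 changes were still negative, from -0.084 (Ppp1r1b) to -0.89 (Drd2). None was called, where 30 of 16363 genes other than the members were. Cortical excitatory markers were higher with nPM in 7 of 7 genes tested, with a median of 1.60 on the log2 scale, and Cux2 passed the threshold (log2 change 0.94, SE 0.25, limma adjusted p = 1.00). Isl1 passed it with a change of -1.92 (SE 0.56, limma adjusted p = 1.00). Neither passed without controls 0 and 2, with Cux2 at 0.62 (SE 0.24) and Isl1 at -1.12 (SE 0.59), and the median of the cortical excitatory markers was then 0.34, with 7 of 8 genes higher.

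In APOE3 females 0 of 6 members were called, against 0.665% of 16394 genes, and the members split: Drd2 (0.58, SE 0.80), Pde10a (0.45, SE 0.58) and Rgs9 (0.42, SE 0.55) were higher with nPM and Penk (-0.52, SE 0.46), Ppp1r1b (-0.36, SE 0.35) and Adora2a (-0.10, SE 0.61) lower. Exact permutation p was at least 0.371 for all 6. The direction depended on the mice and the method. With edgeR and DESeq2 on all 8 mice Drd2 was -0.15 and -0.13, without F6 alone Rgs9 and Pde10a were each at -0.05, and without control 52 or 63 Adora2a was 0.31 or 0.22. With the length slope as a covariate Drd2, Rgs9 and Pde10a were at -1.02, -0.65 and -0.67. Without controls 61 and F6, 2 controls against 4 nPM mice, all 6 changes were negative, from -0.64 (Rgs9, SE 0.22) to -1.27 (Penk, SE 0.23), and 5 of 6 passed the unadjusted threshold, Rgs9 being the exception, while the smallest limma adjusted p was 0.82. In that fit 87 of 16665 genes were called, or 0.522%. The remaining controls, 52 and 63, had striatal levels of 0.56 and 0.33, and the nPM mice -0.68 to -0.13. Controls 61 and F6, at -1.20 and -2.07, were the lowest of their group in that same level. Leaving them out thus also selects controls by the members' own values. The directions and calls of that fit cannot be told apart from this choice.

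In APOE3 males 0 of 6 members were called, against 0.154% of 16898 genes. All 6 changes were negative, from -0.16 (Rgs9, SE 0.20) to -0.29 (Penk, SE 0.24), with an exact permutation p of at least 0.314. Control 63 was the highest of its group for each member. The standard errors were the smallest of the 6 nPM comparisons, and the 95% interval of Drd2 ran from -0.78 to 0.24.

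In APOE4 females 0 of 6 members were called, against 0.272% of 16561 genes, with all 6 higher by 0.14 (Penk, SE 0.48) to 0.48 (Pde10a, SE 0.43). Without nPM mouse 39, whose level was -1.45 among mice at 0.35 to 1.18, 1 member passed the threshold, Rgs9 (log2 change 0.94, SE 0.26, limma adjusted p = 0.66). That mouse stands out by the members' own values, so the call cannot be told apart from the choice to leave it out. The share of all genes called without it is not given here. Without nPM mouse 8, the highest, 4 of the 6 changes turned negative, Drd2 at -0.058, Ppp1r1b at -0.064, Penk at -0.19 and Adora2a at -0.24. These directions cannot be told apart from leaving out the mouse highest in the members. With the length slope as a covariate all 6 were negative, from -0.13 (Pde10a) to -0.49 (Adora2a). In APOE4 males 0 of 6 members were called, against 0.178% of 16870 genes, with all 6 higher by 0.32 (Penk, SE 0.35) to 0.52 (Adora2a, SE 0.41). Exact permutation p was at least 0.371 in the females and 0.343 in the males. All 14 further genes of both kinds of spiny neuron were also higher in both sexes of APOE4 with nPM, none of them past the threshold. Their mean follows the striatal level from mouse to mouse (r of 0.99 in APOE-TR mice), so they are not separate cases.

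**Figure D5:**
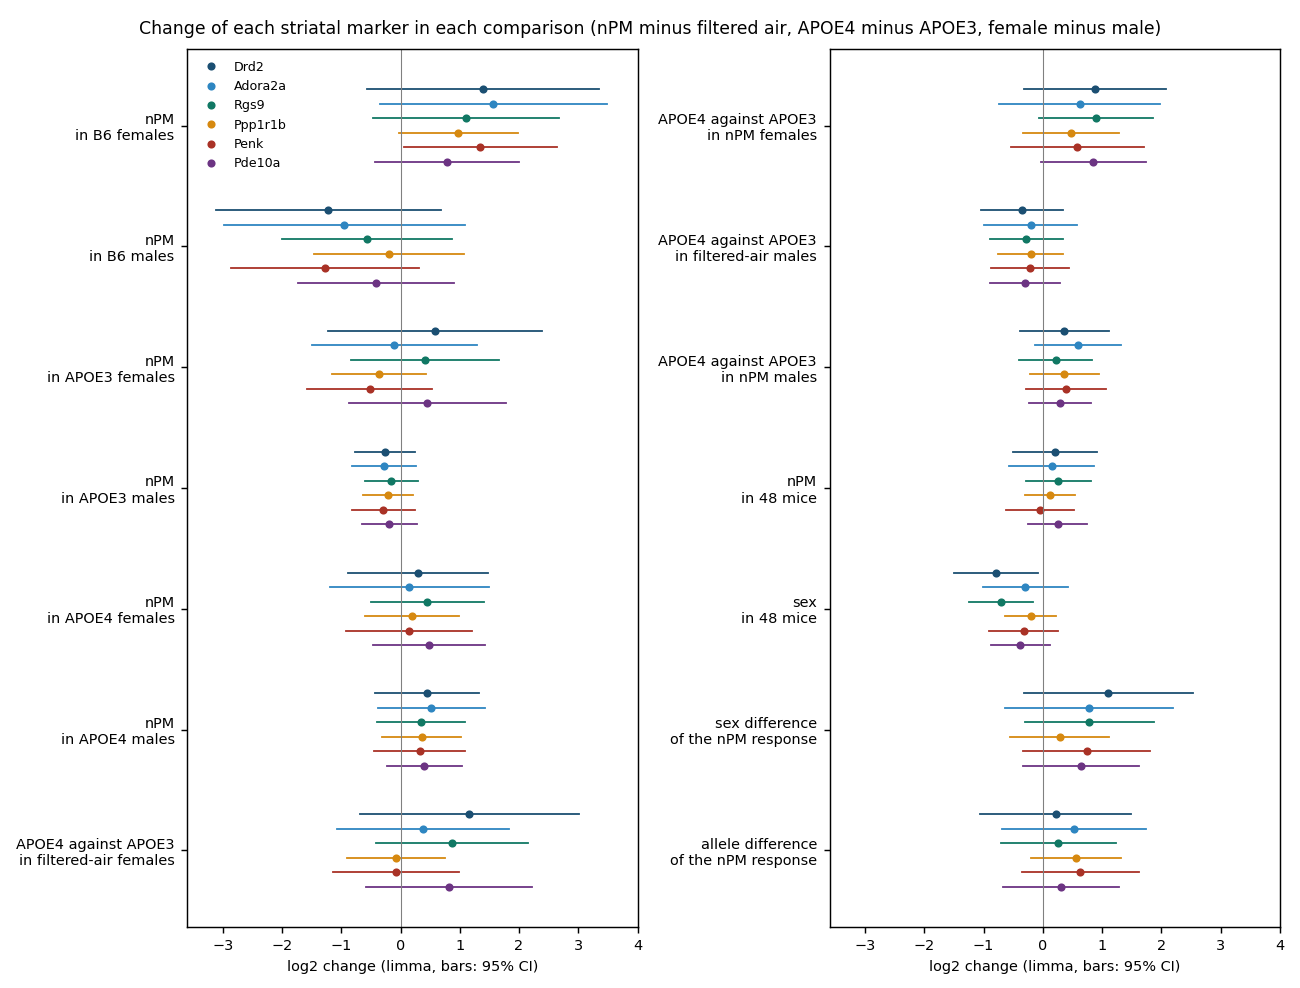
Log2 change of each striatal marker in the 14 comparisons (limma, bars 95% intervals), nPM minus filtered air, APOE4 minus APOE3, or female minus male. Intervals include 0 except for Penk with nPM in B6 females and for Drd2 and Rgs9 between the sexes. The 6 members of a comparison mostly lie on the same side. Without control 41, the B6 mouse lowest in the striatal level, Penk in B6 females was at 0.69 (SE 0.45).

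APOE4 mice were set against APOE3 mice within sex and exposure, with 5% FDR as the threshold, and no member was called in any of the 4 comparisons. In filtered-air females (0.231% of 16419 genes called) Drd2 was higher in APOE4 by 1.16 (SE 0.81), Rgs9 by 0.86 (SE 0.57) and Pde10a by 0.82 (SE 0.62), with Penk and Ppp1r1b at -0.08 each. Controls 61 and F6 are in the APOE3 group, and without them all 6 changes were negative, from -0.19 (Rgs9) to -0.83 (Penk), with the smallest adjusted p 0.083. These directions cannot be told apart from leaving out the APOE3 controls with the lowest striatal levels. In nPM females (0.145% of 16509 genes called) all 6 were higher in APOE4, by 0.47 (Ppp1r1b, SE 0.37) to 0.90 (Rgs9, SE 0.43), with an exact permutation p of at least 0.143. In filtered-air males (0.433% of 16866 genes called) all 6 changes were negative, from -0.20 to -0.35, and in nPM males (0.474% of 16861 genes called) all 6 were higher, by 0.22 to 0.60. These 4 comparisons share no mice with each other, but each shares all of its mice with 2 of the nPM comparisons.

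Over all 48 mice, with terms for sex and genotype, nPM called 0 of 6 members, against 1.48% of 11097 genes. The changes were -0.045 (Penk, SE 0.29) to 0.26 (Rgs9, SE 0.27), with the smallest limma adjusted p 0.64. Within the B6 mice they were 0.038 to 0.39 and within the APOE-TR mice -0.086 to 0.28. For scale, the 95% interval of Drd2 ran from -0.51 to 0.91.

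The sexes were compared in the same fit, with 36.7% of 11097 genes called at 5% FDR. Of the members 1 was called, Rgs9, at -0.71 (SE 0.27) in females relative to males (adjusted p = 0.034), a share of members below that background. Drd2 was at -0.79 (SE 0.35, adjusted p = 0.072), and Pde10a, Penk, Adora2a and Ppp1r1b were at -0.38, -0.33, -0.29 and -0.20. Within the B6 mice no member was called, with Rgs9 at -0.90 (SE 0.58). Within the APOE-TR mice, where 60.4% of 15972 genes were called, Rgs9 (-0.62, adjusted p = 0.029) and Pde10a (-0.69, adjusted p = 0.015) were called lower in females, Drd2 was at -0.71 (adjusted p = 0.051), and Adora2a, Penk and Ppp1r1b were at 0.18, 0.11 and 0.089. Without controls 61 and F6 none was called, with Rgs9 at -0.39 and Pde10a at -0.45. The shares of all genes called in that fit and within the B6 mice are not given here. Length slopes of the libraries did not overlap between the sexes in APOE-TR mice, and Rgs9 and Pde10a have the longest transcripts of the 6, of 3464 and 7769 bases. Sex and length slope cannot be told apart there, and the part of transcript length in these calls was not tested. With the slope as a covariate over 48 mice Rgs9 was at -0.58 (adjusted p = 0.12) and Pde10a at -0.064. The call of Rgs9 over 48 mice was also lost without B6 male controls 0 and 2, where 4431 of 11341 genes other than the members were called. It was lost as well on leaving out any 1 of 6 mice: B6 female control 41, B6 female nPM mouse 51, APOE3 male control 63, APOE3 female controls 61 or F6, or APOE4 female nPM mouse 39. Leaving out others added calls: Drd2 was also called without B6 female nPM mouse 50 (-0.87, adjusted p = 0.049), and Drd2 (adjusted p = 0.0095) and Pde10a (-0.53, adjusted p = 0.040) without B6 male nPM mouse 12.

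The response to nPM was tested for a difference between the sexes and between the alleles. Females minus males over the 3 genotypes gave 0.29 (Ppp1r1b, SE 0.42) to 1.10 (Drd2, SE 0.71), with 0 of 6 members called against 1.97% of 11097 genes. Within B6 mice the difference was 1.17 (Ppp1r1b) to 2.62 (Penk, SE 1.08, limma adjusted p = 0.56), and within APOE-TR mice it was -0.20 to 0.36, and neither called a member. The shares of all genes called within B6 and within APOE-TR mice are not given here. APOE4 minus APOE3 over both sexes gave 0.21 (Drd2, SE 0.63) to 0.64 (Penk, SE 0.48), with 0 of 6 called against 0.726% of 15972 genes. Without controls 61 and F6, the APOE3 female controls lowest in the striatal level, these became 0.79 (Rgs9) to 1.08 (Adora2a). Still no member was called, where 106 of 16111 genes other than the members were.

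The striatal level was also entered as a covariate for all other genes, to see how many calls of each comparison it moves. For nPM in 48 mice 164 genes were called without it and 149 with it, 136 of them in both. In B6 females 177 genes became 158, with 91 in both, and in B6 males 37 became 21, with 14 in both. In APOE3 females 109 became 389, with 106 in both, and for APOE4 against APOE3 in filtered-air females 38 became 1703, with all 38 among them, both being comparisons that include controls 61 and F6. Without these 2 controls the counts fell with the level instead, from 82 to 2 with 0 in both, and from 341 to 23 with 18 in both. In the first of these fits the controls had levels of 0.56 and 0.33 and the nPM mice -0.68 to -0.13, with no overlap. Level and nPM cannot be told apart there, so that fall does not measure how many calls the level moves. In the second fit the same controls stood against APOE4 controls at -0.80 to 0.39. They were left after dropping the controls lowest in the level, so that fall cannot be told apart from this choice. For nPM in 46 mice 38 became 46, with 36 in both. Without controls 0 and 2, 30 genes became 27 in B6 males, with 21 in both, and 124 became 73 for nPM in 46 mice, with 72 in both. In APOE4 males 30 became 16, with 7 in both.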

How the data were processed

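Cortex RNA of 48 mice was sequenced. The authors aligned reads to mm10 with TopHat2 2.0.8b, counted unique reads per gene in Partek Flow and deposited CPM (depth-scaled counts), in 1 table for B6 and another for APOE-TR mice. Where values are whole multiples of a step, reads were recovered: 96.2% to 97.1% of low values in APOE-TR columns and 87.7% to 98.4% in B6 columns came out whole (within 0.1 of a step). Depth was 2.05 to 24.4 and 17.8 to 31.3 M reads, which bounds counting error only. Repeated symbol listings were left out, 4 in each table. The column of 1 APOE3 female control, F6, matched no sample number.

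CPM was rescaled by TMM factors (edgeR 4.0.16) and tested as log2(value + 0.5) with limma 3.58.1 (trend, R 4.3.3) over genes read in every mouse of a fit, so fold changes of low genes are understated. The threshold was an unadjusted p of 0.005 for nPM and interactions and 5% FDR (Benjamini-Hochberg) for APOE and sex. The test was checked on simulated data. A two-sided exact permutation test over 70 labelings served each member with 4 mice against 4, and correlations used 100000 resamples with no adjustment over pairs. The r over all 16 B6 mice was replaced by one over 12 because 4 mice lie apart, except in the order of genes most like the striatal level, which is given both ways. The 12-mouse list values were chosen after seeing the data. Library batches are not given in the sources used here. The members, gene lists and tests were chosen with earlier results of these data known. Genes beyond the members are those of the lists that passed a threshold, those among the 10 most like the striatal level, and a few chosen after their values were seen (Slc17a7, Chat, Prkcd). Some results that this rule names are not reported here. Alternatives were other scalings, pseudocounts, filters, voom, edgeR and DESeq2 1.42.0 on recovered reads, a common variance, a length covariate and leaving mice out.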

Additional observations from a re-analysis of the deposited data

Results flagged for a closer look

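In each group of 4, the gap between an extreme mouse and the next was set against the group's range by Dixon's ratio with its 95% critical value, over 84 groups of values, of which chance alone flags about 1 in 20. There were 8 such cases. APOE3 male control 63 accounts for 6 of them: it stood above the other controls of its group in Drd2 (26.3 CPM against 15.3 to 16.2), Penk (266 against 150.3 to 156), Rgs9 (135 against 73.2 to 81.0), Ppp1r1b (305 against 193 to 207), Pde10a (406 against 209 to 234) and the striatal level (0.64 against -0.13 to -0.01). These 6 values rise together across mice and are not separate cases.

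B6 male control 0 stood above its group in Drd2 (119.5 CPM against 51.5 to 59.5), and it is also a library low in cortical excitatory markers. APOE3 female nPM mouse 70 had a striatal level of -0.13, against -0.68 to -0.63 in the other nPM mice of that group.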

How the results depend on the processing

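No paired analysis was possible because the groups compared share fewer than 2 replicate numbers. Of 762 log2 changes of single members under other scalings, pseudocounts, filters and tools 760 kept their direction, and 151 of 186 under those added after the data were seen. Both edgeR and DESeq2 were run on APOE-TR mice alone, since reads were not recovered in every B6 column. The cause of each change below was not tested.

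For nPM in APOE3 females Drd2 was -0.15 with edgeR and -0.13 with DESeq2. With the length slope as a covariate Drd2, Rgs9 and Pde10a were -1.02, -0.65 and -0.67, and without controls 61 and F6 they were -1.03, -0.64 and -0.71, with 5 members called. Those controls had the lowest striatal levels of their group. With the slope, nPM in APOE4 females gave Drd2 -0.36, Adora2a -0.49, Rgs9 -0.16, Ppp1r1b -0.15, Penk -0.28 and Pde10a -0.13. APOE4 against APOE3 in filtered-air females gave Drd2 -1.10, Adora2a -1.01, Rgs9 -0.58 and Pde10a -0.76 with the slope, and -0.44, -0.73, -0.19 and -0.34 without controls 61 and F6. For nPM in 48 mice Penk was 0.053 with the slope, 0.13 without B6 male controls 0 and 2 and 0.038 within B6, Drd2 was -0.0079 without 61 and F6, and Ppp1r1b was -0.0089 within APOE-TR. For sex, Pde10a was 0.22 within B6, and Adora2a, Ppp1r1b and Penk were 0.18, 0.089 and 0.11 within APOE-TR, or 0.36, 0.16 and 0.20 there without 61 and F6. The sex difference of the nPM response within APOE-TR was -0.094 for Adora2a, -0.16 for Ppp1r1b and -0.20 for Penk. Members called for sex were 0 with the slope, without 61 and F6, without B6 male controls 0 and 2, within B6, and within APOE-TR without 61 and F6, and 2 within APOE-TR. Of the genes other than the members, 3155 of 11094 were called without 61 and F6, and 4431 of 11341 without B6 male controls 0 and 2. Shares with the slope, within B6 and within APOE-TR without 61 and F6 are not given here. From deviations from group means the median r between members in APOE-TR mice was 0.93. With the other spiny neuron genes the striatal level spanned 2.24 in B6 and 2.11 in APOE-TR mice.

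Leaving out 1 mouse at a time, members called ran from 0 to 3 for sex (0 without B6 female control 41, B6 female nPM mouse 51, APOE3 male control 63, APOE3 female controls 61 or F6, or APOE4 female nPM mouse 39; 2 without B6 female nPM mouse 50; 3 without B6 male nPM mouse 12) and from 0 to 1 for nPM in APOE4 females (1 without mouse 39). Shares of all genes called in these fits are not given here. The comparison of nPM in B6 males gave Drd2 -1.91 to 0.014, Adora2a -1.70 to 0.34, Rgs9 -0.97 to 0.35, Ppp1r1b -0.77 to 0.49, Pde10a -0.77 to 0.44. The comparison of nPM in APOE3 females gave Adora2a -0.72 to 0.31, Rgs9 -0.048 to 0.84, Pde10a -0.051 to 0.87. The comparison of nPM in APOE3 males gave Rgs9 -0.28 to 0.040, Pde10a -0.33 to 0.025. The comparison of nPM in APOE4 females gave Drd2 -0.058 to 0.93, Adora2a -0.24 to 0.88, Ppp1r1b -0.064 to 0.60, Penk -0.19 to 0.73. APOE4 against APOE3 in filtered-air females gave Adora2a -0.25 to 0.79, Ppp1r1b -0.42 to 0.12, Penk -0.55 to 0.21. APOE4 against APOE3 in filtered-air males gave Adora2a -0.46 to 0.19, Ppp1r1b -0.36 to 0.059, Penk -0.46 to 0.076. APOE4 against APOE3 in nPM males gave Rgs9 -0.029 to 0.50. The comparison of nPM in 48 mice gave Adora2a -0.052 to 0.33, Penk -0.19 to 0.10. The allele difference of the nPM response gave Drd2 -0.068 to 0.53.

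Genes called over alternatives ranged from 27 to 72 for nPM in B6 males (37 as reported), 87 to 5052 in APOE3 females (109), 14 to 34 in APOE3 males (26), 22 to 84 in APOE4 females (45) and 5 to 128 in APOE4 males (30). For APOE4 against APOE3 they ranged from 21 to 8866 in filtered-air females (38), 14 to 111 in nPM females (24), 43 to 140 in filtered-air males (73) and 42 to 211 in nPM males (80). For the comparisons reported over 48 mice they ranged from 38 to 188 for nPM (164) and 3155 to 9642 for sex (4076). For the sex difference they ranged from 56 to 356 (219), and for the allele difference, over 32 mice, from 102 to 195 (116). Some of these alternatives used fewer mice. Leaving out both APOE3 female controls low in the striatal level gave 38, 3155 and 56. Leaving out both B6 male controls low in cortical markers gave 356. The 9642 genes for sex come from a fit within the 32 APOE-TR mice alone, with its own set of tested genes. The counts of 5052 and 8866 come from a common variance over groups. No member was without reads in any mouse, and the lowest value rested on 17 reads.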

Other observations

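A few other genes of the marker lists passed the threshold of a comparison in which no member did. Tnnt1, a thalamic marker here, was higher in APOE4 than in APOE3 males, by 0.68 in filtered air (SE 0.10, limma adjusted p = 0.011) and by 0.54 with nPM (SE 0.10, adjusted p = 0.045). Tnnt1 was low in APOE-TR mice, at 0.31 to 1.49 CPM. The summed 8 thalamic genes overlapped between these alleles. They were 49.4 to 94.2 CPM in APOE3 and 48.5 to 78.3 in APOE4 males in filtered air, and 51.1 to 58.9 and 50.4 to 57.7 with nPM. Prox1, a dentate gyrus transcription factor, was higher with nPM in APOE4 females by 0.32 (SE 0.092, limma adjusted p = 0.75). Lhx6, a transcription factor of cortical interneurons, had a larger nPM response in females than in males by 0.61 (SE 0.20, limma adjusted p = 0.23). It did not pass without controls 61 and F6 (0.43, SE 0.18) or without B6 male controls 0 and 2 (0.51, SE 0.20).

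Between the sexes in 48 mice, Pde1b (-0.39, SE 0.14, limma adjusted p = 0.026) and Adcy5 (-0.55, SE 0.20, adjusted p = 0.030) of the striatal lists were lower in females. So were Lhx6 (-0.44), Lef1 (-0.39) and Prkcd (-0.67), while Vip (1.01) and Rorb (0.47) were higher. These stand beside 36.7% of all genes. Without controls 61 and F6 Pde1b and Adcy5 were not called, at -0.34 and -0.35, and without B6 male controls 0 and 2 neither these, at -0.34 and -0.47, nor Prkcd, at -0.40, were called.

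Choroid plexus signal varied apart from the striatal level. Ttr, the transthyretin gene, had 1412 CPM in APOE3 female control F6, against 4.303 to 1097 CPM in 31 other APOE-TR mice with a median of 22.8 CPM.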
